A study of Saccharomyces cerevisiae with 4 samples.

Results

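The 9 genes described here make, lengthen, activate and desaturate fatty acids in budding yeast (Saccharomyces cerevisiae), together with the regulators MGA2 and SPT23. They were chosen by name, and all 9 were found among the 6659 genes with an RPKM value, a read count scaled for gene length and library depth. RNA depleted of ribosomal RNA had been sequenced from haploid strains of the BY4741/2 background, all of them his-, ura- and leu-, grown in YPD with dextrose to mid-log phase. The strains were the double deletion ume6∆snf2∆ (ume6:KanMX with snf2-delta:NatMX), ume6∆ (ume6-delta:KanMX), snf2∆ (snf2-delta:NatMX) and wild type (WT). Each strain was represented by a single library. Snf2 drives the Swi/Snf nucleosome remodeller. Ume6 binds the URS1 element and recruits a histone deacetylase to it. Because no strain was repeated, no difference could be set against the spread between cultures. No p-values are given, and each 95% interval covers counting error only.

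Fatty acid synthesis starts when acetyl-CoA carboxylase makes malonyl-CoA, which the cytosolic fatty acid synthase, a complex of separate alpha and beta subunits, adds stepwise to a growing chain. Saturated chains are desaturated in the endoplasmic reticulum by a single delta-9 desaturase, lengthened by elongases, or, when taken up from outside, activated to acyl-CoA. The desaturase gene is switched on by Mga2 and Spt23, paired membrane-anchored factors that are cut free when unsaturated fatty acids run low. In yeast, synthase genes carry an element for the activators Ino2 and Ino4, which also drive genes of inositol and phospholipid synthesis.

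The sequences shown here are the stretches before 4 members that hold a match to the motif of a regulator, because these members either stood out in the libraries or are textbook targets of that regulator. They are from the R64 genome of RefSeq, which is the assembly behind sacCer3, and run 5′ to 3′ on the strand of the gene. In MGA2 (chrIX:415951-416016, plus strand) the capitals mark GCCGCC, the core of the Ume6 element, beginning 143 bases before the start of the gene. In FAS1 (chrXI:99937-100007, plus strand) they mark CACATG, the core of the Ino2 and Ino4 element, beginning 704 bases before the start, and GCCGCC beginning 699 bases before it. These matches share 1 base. In FAS2 (chrXVI:108341-108440, plus strand) they mark TTACCCG, a Reb1 site, and CACATG, beginning 296 and 232 bases before the start. In OLE1 (chrVII:398255-398323, plus strand) they mark ACTCAACAA, a form of the low-oxygen response element, beginning 343 bases before the start.
MGA2: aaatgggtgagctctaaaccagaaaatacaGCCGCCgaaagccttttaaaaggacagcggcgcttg
FAS1: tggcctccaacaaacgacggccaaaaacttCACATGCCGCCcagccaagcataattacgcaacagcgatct
FAS2: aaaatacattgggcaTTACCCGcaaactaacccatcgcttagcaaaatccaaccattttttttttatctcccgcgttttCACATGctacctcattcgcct
OLE1: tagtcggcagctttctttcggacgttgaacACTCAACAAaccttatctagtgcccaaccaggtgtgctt

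The libraries were scaled by the authors to between 17.4 M reads (ume6∆snf2∆) and 30.2 M reads (ume6∆), and every member had between 1930 and 137454 reads in each library. The deleted genes followed the labels. SNF2 had 0.157 RPKM in ume6∆snf2∆ and 0.107 RPKM in snf2∆, against 36.9 RPKM in ume6∆ and 67.9 RPKM in WT, and UME6 had 0.137, 0.0132, 19.6 and 34.6 RPKM in ume6∆snf2∆, ume6∆, snf2∆ and WT. Markers of mating type moved with SNF2. The 3 a-cell markers STE2, MFA1 and MFA2 summed to 35.0 RPKM in ume6∆snf2∆ and 8.34 RPKM in snf2∆, against 662 RPKM in ume6∆ and 781 RPKM in WT. The 2 alpha-cell markers STE3 and MF(ALPHA)1 summed to 7649 RPKM in ume6∆snf2∆ and 2473 RPKM in snf2∆, against 8.39 RPKM in ume6∆ and 6.06 RPKM in WT. MET17 had 2350.2 RPKM in ume6∆snf2∆ and 0.817 to 1.12 RPKM in the other libraries, and LYS2 had 0.385 RPKM there and 91.0 to 303 RPKM elsewhere. Snf2 and mating type cannot be told apart here, nor can the double deletion and the state of these nutritional genes.

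The levels of the members, per length, spanned from SPT23 at 46.7 RPKM to OLE1 at 1586 RPKM in WT. OLE1 was the highest member in all 4 libraries and SPT23 the lowest. In WT the order was OLE1, FAS2, FAS1, FAA4, ACC1, FAA1, ELO1, MGA2 and SPT23. In ume6∆snf2∆ it was OLE1, FAA4, MGA2, FAS2, ACC1, FAS1, ELO1, FAA1 and SPT23. MGA2 thus stood in the 8th place in WT and in the 3rd in the double deletion, and FAS1 in the 3rd place in WT and in the 6th in the double deletion. Of 32 neighbouring pairs in these orders over the 4 libraries, 31 had a ratio whose counting interval lay off 1. The exception was FAS2 over ACC1 in ume6∆snf2∆, with a ratio of 1.012 (interval 0.9966 to 1.027).

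**Figure D1:**
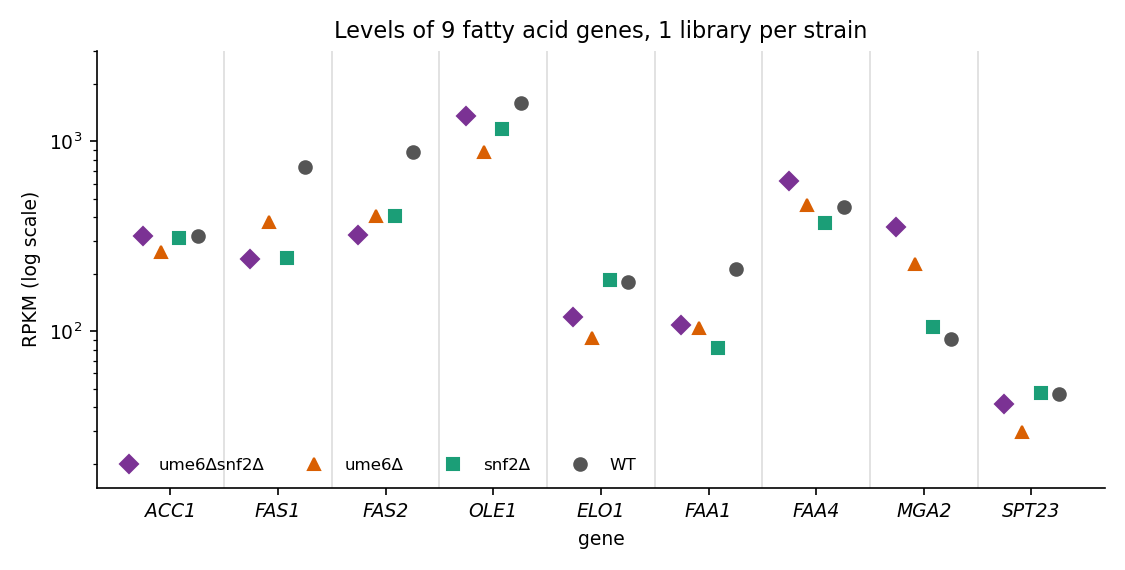
RPKM on a log axis for each of the 9 genes, with 1 point per library in the order ume6∆snf2∆, ume6∆, snf2∆ and WT. FAS1 and FAS2 are lower in the 3 deletion strains than in WT, MGA2 is higher in the 2 libraries without UME6, and ACC1 lies between 260.3 and 319 RPKM throughout.

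ACC1 (YNR016C, chromosome XIV, 654673 to 661374) encodes acetyl-CoA carboxylase, which makes the malonyl-CoA used for synthesis and for elongation. It had 317 RPKM in ume6∆snf2∆, 260.3 RPKM in ume6∆, 311 RPKM in snf2∆ and 319 RPKM in WT. The values lay close together, and the ratio of ume6∆snf2∆ to WT was 0.9933 (interval 0.9804 to 1.006). The lowest value, in ume6∆, gave a log2 difference of -0.29 from WT, where the median of all genes was -0.30.

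FAS1 (YKL182W, chromosome XI, 100671 to 106826) encodes the beta subunit of the fatty acid synthase. It had 240.0 RPKM in ume6∆snf2∆, 377 RPKM in ume6∆, 244 RPKM in snf2∆ and 736 RPKM in WT. All 3 deletion strains were below WT, and the libraries without SNF2 were the lowest. The ratio of snf2∆ to WT was 0.332 (interval 0.328 to 0.336), that of ume6∆ to WT was 0.512 (interval 0.508 to 0.517), and that of ume6∆snf2∆ to snf2∆ was 0.982 (interval 0.967 to 0.998).

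FAS2 (YPL231W, chromosome XVI, 108652 to 114315) encodes the alpha subunit, which carries the acyl carrier domain. It had 321 RPKM in ume6∆snf2∆, 404 RPKM in ume6∆, 405 RPKM in snf2∆ and 875 RPKM in WT. The single deletions lay close together, with ratios to WT of 0.461 for ume6∆ (interval 0.457 to 0.466) and 0.462 for snf2∆ (interval 0.458 to 0.467), and the double deletion was the lowest. Both subunits were therefore lower in each deletion strain than in WT, but not to the same extent. The ratio of FAS1 to FAS2 within a library, which no scaling between libraries can change, was 0.748 in ume6∆snf2∆ (interval 0.735 to 0.760), 0.934 in ume6∆ (interval 0.925 to 0.944), 0.604 in snf2∆ (interval 0.596 to 0.612) and 0.841 in WT (interval 0.835 to 0.848). It was lower without SNF2 than with it on either background.

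OLE1 (YGL055W, chromosome VII, 398628 to 400160) encodes the delta-9 desaturase and is a target of Mga2 and Spt23. It had 1363 RPKM in ume6∆snf2∆, 879 RPKM in ume6∆, 1163 RPKM in snf2∆ and 1586 RPKM in WT. WT was highest and ume6∆ lowest, and no comparison reached 2-fold. The ratio of ume6∆ to WT was 0.555 (interval 0.548 to 0.561), and that of ume6∆snf2∆ to ume6∆ was 1.55 (interval 1.53 to 1.57). OLE1 was 67th from the top among all measured genes in WT and 215th in ume6∆. Its level relative to FAS1 was 5.68 in ume6∆snf2∆ and 4.76 in snf2∆, against 2.33 in ume6∆ and 2.15 in WT.

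ELO1 (YJL196C, chromosome X, 67850 to 68782) encodes the elongase that lengthens medium chains. It had 119 RPKM in ume6∆snf2∆, 91.9 RPKM in ume6∆, 187 RPKM in snf2∆ and 182 RPKM in WT. The 2 libraries without UME6 were below the 2 with it. The ratio of ume6∆ to WT was 0.506 (interval 0.482 to 0.531), just short of 2-fold, and that of ume6∆snf2∆ to snf2∆ was 0.635 (interval 0.602 to 0.670).

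FAA1 and FAA4 encode acyl-CoA synthetases that activate long-chain fatty acids taken up from the medium. FAA1 (YOR317W, chromosome XV, 909343 to 911445) had 108 RPKM in ume6∆snf2∆, 104 RPKM in ume6∆, 82.0 RPKM in snf2∆ and 213 RPKM in WT. FAA4 (YMR246W, chromosome XIII, 759807 to 761891) had 617 RPKM in ume6∆snf2∆, 462 RPKM in ume6∆, 373 RPKM in snf2∆ and 451 RPKM in WT. FAA1 was lower in every deletion strain than in WT, while FAA4 was highest in the double deletion and lowest in snf2∆. The ratio of FAA1 to FAA4 was 0.174 in ume6∆snf2∆ (interval 0.1686 to 0.1805), 0.224 in ume6∆ (interval 0.218 to 0.230), 0.220 in snf2∆ (interval 0.213 to 0.227) and 0.474 in WT (interval 0.463 to 0.484). FAA4 was the more abundant of the pair in all 4 libraries, by the widest margin in ume6∆snf2∆.

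MGA2 (YIR033W, chromosome IX, 416124 to 419465) encodes the main activator of OLE1. It had 356 RPKM in ume6∆snf2∆, 225 RPKM in ume6∆, 105 RPKM in snf2∆ and 90.9 RPKM in WT. The libraries without UME6 were both above the libraries with it. The ratio was 2.48 for ume6∆ over WT (interval 2.42 to 2.54), 3.38 for ume6∆snf2∆ over snf2∆ (interval 3.30 to 3.47) and 3.92 for ume6∆snf2∆ over WT (interval 3.82 to 4.02). SPT23 (YKL020C, chromosome XI, 398832 to 402080), its paralog, had 41.5 RPKM in ume6∆snf2∆, 29.4 RPKM in ume6∆, 47.4 RPKM in snf2∆ and 46.7 RPKM in WT, with ume6∆ the lowest. MGA2 exceeded SPT23 by 8.57-fold in ume6∆snf2∆ (interval 8.21 to 8.95) and 7.65-fold in ume6∆ (interval 7.36 to 7.96), against 2.22-fold in snf2∆ (interval 2.14 to 2.31) and 1.95-fold in WT (interval 1.88 to 2.02). While MGA2 was 2.48-fold higher in ume6∆ than in WT, OLE1 had 879 RPKM in ume6∆ and 1586 RPKM in WT. Where MGA2 was 3.38-fold higher in ume6∆snf2∆ than in snf2∆, OLE1 had 1363 RPKM in ume6∆snf2∆ and 1163 RPKM in snf2∆. RNA levels do not show how much of the Mga2 precursor is cut free.

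**Figure D2:**
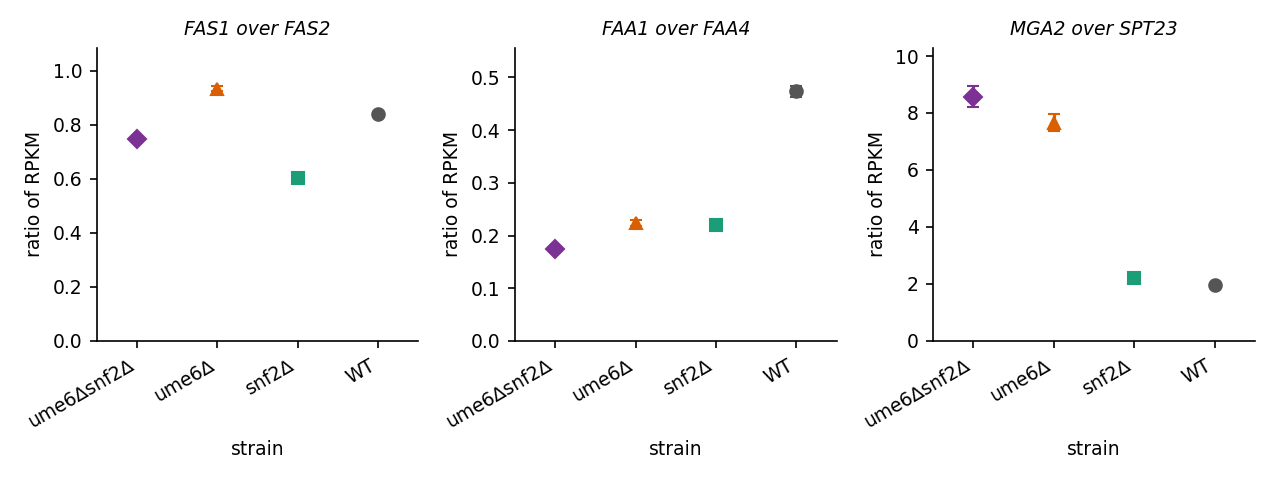
Ratio of RPKM between 2 members within each library, with exact 95% counting intervals as bars, for ume6∆snf2∆, ume6∆, snf2∆ and WT from left to right. MGA2 over SPT23 is 8.57 and 7.65 in the libraries without UME6, against 2.22 and 1.95 in those with it, and FAA1 over FAA4 is lower in all 3 deletion strains than in WT.

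The members did not overlap another annotated gene. FAA1 and FAA4 had 66.5% identical bases where aligned, and MGA2 and SPT23 had 64.7%. None of the windows of 50 bases in any member occurred elsewhere in the genome, so reads of that length could be told apart between these paralogs.

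Changes are given on the scale of log2(RPKM + 1), where a change of 1 is 2-fold and changes of low genes are understated. The background was the 6520 genes whose mean reached 1 RPKM, all 9 members among them. In snf2∆ over WT, 0 members were at least 2-fold higher and 3 lower (FAS1, FAS2 and FAA1), where 3.31% of all genes were higher and 7.96% lower. The log2 changes were -1.59 for FAS1, -1.37 for FAA1 and -1.11 for FAS2, and the other 6 members lay between -0.45 and 0.21. The median was -0.27 for the members and -0.11 for all genes.

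In ume6∆ over WT, MGA2 was higher by 1.30 on the log2 scale and 2 members were lower, FAS2 by -1.11 and FAA1 by -1.04. Over all genes, 4.59% were higher and 15.2% were lower by 2-fold. ELO1 at -0.98 and FAS1 at -0.96 lay just short of 2-fold. The members' median of -0.85 was below the all-gene median of -0.30. Scaling each library by its median ratio, which brings the all-gene median to about 0, gave 573 genes higher and 546 lower in place of 299 higher and 989 lower. FAS2 was then at -0.81 and FAA1 at -0.73, short of 2-fold, and MGA2 at 1.60. The 2-fold count of lower members in ume6∆ therefore rests on the authors' scaling, while that of MGA2 does not.

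In ume6∆snf2∆ over WT, MGA2 was higher by 1.96, and FAS1 and FAS2 were lower, at -1.61 and -1.44. Here 10.4% of all genes were higher and 9.97% lower. FAA1 was at -0.98, or at -1.04 with median ratio scaling. The members' median was -0.22, against 0.06 for all genes.

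In ume6∆snf2∆ over ume6∆, which is the loss of Snf2 where Ume6 is already absent, 0 members were higher and 0 lower at 2-fold, where 11.1% of all genes were higher and 3.45% lower. After median ratio scaling the split over all genes was 331 higher and 433 lower in place of 724 higher and 225 lower. FAS1 had a change of -0.65, or -1.01 with that scaling, which passes 2-fold. In ume6∆snf2∆ over snf2∆, the loss of Ume6 where Snf2 is already absent, MGA2 was higher by 1.75 and 0 members were lower. Of all genes 8.13% were higher and 2.38% lower, or 394 genes higher and 234 lower with median ratio scaling in place of 530 higher and 155 lower. FAS1 differed there by -0.03 and FAS2 by -0.33. The 3 comparisons with WT share that library, and those with ume6∆snf2∆ share the double deletion.

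**Figure D3:**
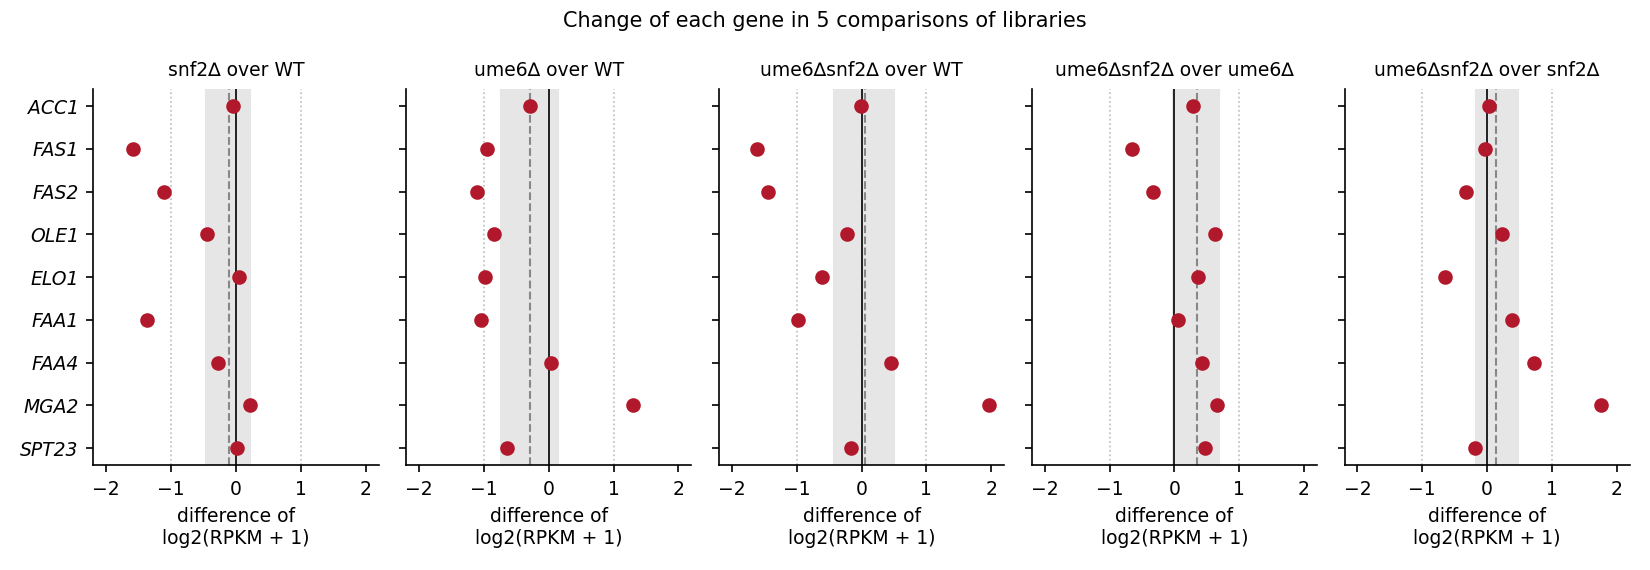
Difference of log2(RPKM + 1) for each gene in 5 comparisons, with the interquartile range of all genes as a grey band, the all-gene median as a dashed line and 2-fold as dotted lines. FAS1 and FAS2 lie at -1.59 and -1.11 in snf2∆ over WT, and MGA2 lies at 1.30, 1.96 and 1.75 in the 3 comparisons that take Ume6 away.

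If losses of Snf2 and Ume6 acted independently, the change of the double deletion over WT would equal the sum of the single changes on the log2 scale. The double deletion lay above that sum by a median of 0.48 over all genes, with quartiles of 0.05 and 0.91, and by a median of 0.69 over the members. MGA2 at 0.45, SPT23 at 0.46, ACC1 at 0.32 and ELO1 at 0.33 were near the all-gene median. FAA1 at 1.42, OLE1 at 1.08 and FAS1 at 0.94 were above the upper quartile, and FAS2 was at 0.78 and FAA4 at 0.69. Under median ratio scaling these values were 0.96 for FAA1, 0.61 for OLE1 and 0.47 for FAS1, against 0.04 for the median gene. The upper quartile was then 0.47, so FAS1 lay at it.

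Motifs were searched on both strands from 250 bases before to 50 bases after the start of 6002 protein-coding genes. The Ume6 core GCCGCC was found in 5.13% of all promoters and in 3 members. In MGA2 it lay before the start. In FAA1 and FAA4 it began 33 bases after the start, inside the coding sequence. Of the genes at least 2-fold higher in ume6∆ than in WT, 252 are protein-coding genes with such a window, and 19.0% of these held the core in it. Of all genes kept, 5820 have such a window, and 5.15% of these held the core. CACATG was found in 6.93% of promoters and in 1 member, FAS2. TTACCCG was found in 7.08% of promoters and in 1 member, ELO1. The Rap1 core ACACCCA was found in 2.25% and ACTCAACAA in 0.167% of promoters, and in 0 members.

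Over the 1000 bases before the start, a window chosen after the data were seen, CACATG was found before 8 members, all except ELO1, and in 26.2% of all promoters. GCCGCC was found before FAS1 and MGA2 and in 18.3% of promoters, and ACTCAACAA before OLE1 and in 1.13%. TTACCCG was found before FAS2 and ELO1 and in 13.5%, and ACACCCA before FAA4 and in 8.90%. MGA2 shares its upstream region of 506 bases with DAL3, a gene of ureidoglycolate breakdown transcribed the other way. DAL3 had 10.7 RPKM in ume6∆snf2∆, 4.96 RPKM in ume6∆, 4.51 RPKM in snf2∆ and 8.22 RPKM in WT. It was lower in ume6∆ than in WT, with a log2 change of -0.63, and higher in ume6∆snf2∆ than in snf2∆, at 1.09, or 0.95 after median ratio scaling, from 110 and 68 reads.

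**Figure D4:**
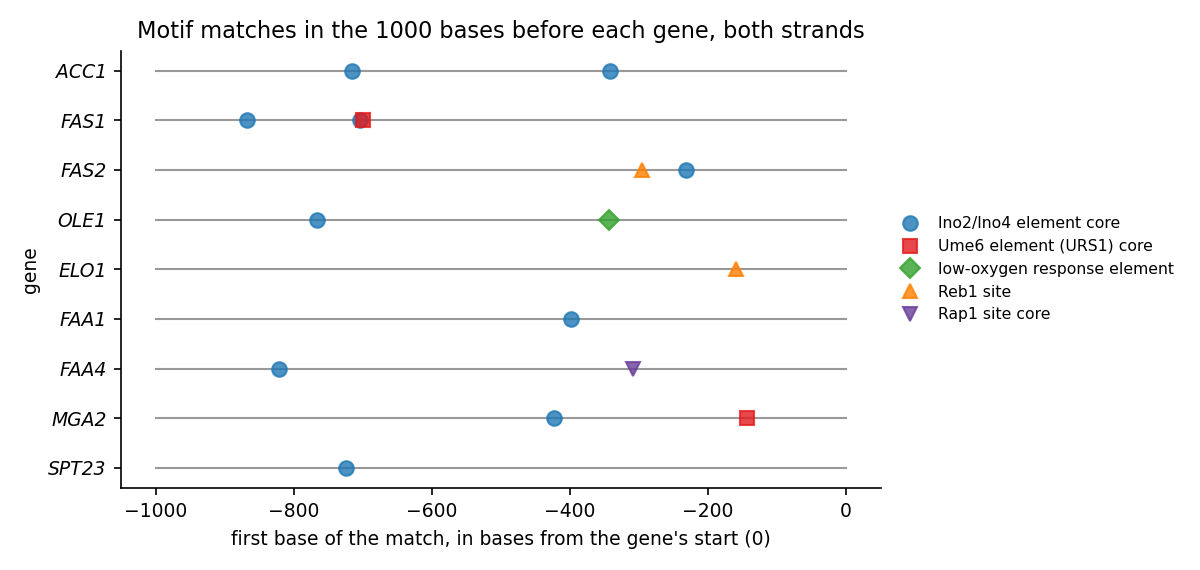
Position of each motif match in the 1000 bases before the start of each member, with 1 marker per match on either strand. The Ume6 core lies 143 bases before MGA2 and 699 bases before FAS1, where it overlaps an Ino2 and Ino4 core that begins 704 bases before the start.

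The other genes of the pathway were taken from 10 lists with 92 genes in all, every one of them measured. ALD6 and ACS1, which supply acetyl-CoA from acetaldehyde and acetate, stood out in the list of acetyl-CoA and cofactor genes. ALD6, the cytosolic acetaldehyde dehydrogenase, had 337 RPKM in ume6∆snf2∆, 472 RPKM in ume6∆, 71.1 RPKM in snf2∆ and 53.8 RPKM in WT. ACS1, an acetyl-CoA synthetase held low on glucose, had 94.1 RPKM in ume6∆snf2∆, 63.3 RPKM in ume6∆, 8.88 RPKM in snf2∆ and 7.90 RPKM in WT. As for MGA2, both libraries without UME6 were above both libraries with it for ALD6 and for ACS1. ACS1 holds GCCGCC beginning 225 bases before its start and its complement beginning 128 bases before it. ALD6 holds GCCGCC only further upstream, beginning 851 and 848 bases before its start. The ALD6 matches lie only in the longer window, which was chosen after the data were seen. Those of ACS1 lie within the window of 250 bases before the start. ACS2, the main synthetase on glucose, had 254 RPKM in ume6∆snf2∆, 168 RPKM in ume6∆, 332 RPKM in snf2∆ and 235 RPKM in WT. BPL1, which attaches biotin to acetyl-CoA carboxylase, had changes over WT of -0.15, -0.64 and 0.12 in ume6∆snf2∆, ume6∆ and snf2∆. VHT1, the biotin transporter, had 0.47, -0.37 and 0.89. PPT2, which arms the mitochondrial acyl carrier protein, was lower in all 3 deletion strains, with 8.14 RPKM in ume6∆snf2∆, 12.0 RPKM in ume6∆ and 8.21 RPKM in snf2∆, against 28.3 RPKM in WT. Under median ratio scaling its change in ume6∆ was -0.88, short of 2-fold.

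The partners of elongation in the endoplasmic reticulum had 0 of 5 genes at 2-fold in either single deletion. Of all genes, 3.31% were higher and 7.96% lower in snf2∆, and 4.59% were higher and 15.2% lower in ume6∆. TSC13, the enoyl reductase, was lower in ume6∆snf2∆ at 104 RPKM, against 261 RPKM in WT, where 9.97% of all genes were lower. It had 159 RPKM in ume6∆ and 162 RPKM in snf2∆. ELO3, an elongase for very long chains, had changes over WT of -0.53, 0.23 and -0.29 in ume6∆snf2∆, ume6∆ and snf2∆. ELO2, a further elongase, had -0.04, 0.54 and 0.02. The dehydratase PHS1 had 0.79, 0.38 and 0.61, and the ketoreductase IFA38 had -0.02, 0.09 and 0.07.

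Of 6 further genes of activation and transport, 2 were lower in snf2∆ than in WT, where 7.96% of all genes were lower. With a pseudocount of 5, and with upper quartile scaling, the count was 1. PXA1, a subunit of the peroxisomal importer of fatty acids, had 3.36 RPKM in snf2∆ and 13.3 RPKM in WT, and the acyl-CoA synthetase FAA3 had 17.4 RPKM in snf2∆ and 39.6 RPKM in WT. PXA2, the partner subunit, was the 1 gene of the list lower in ume6∆, where 15.2% of all genes were lower. It had 3.99 RPKM against 9.24 RPKM in WT, and was short of 2-fold with median ratio scaling (-0.78). ACB1, the acyl-CoA-binding protein, had 678 RPKM in ume6∆snf2∆, 558 RPKM in ume6∆, 515 RPKM in snf2∆ and 377 RPKM in WT, short of 2-fold in each comparison with WT. FAA2 had changes over WT of -0.50, -0.55 and -0.89 and FAT1 of -0.21, -0.03 and -0.28 in ume6∆snf2∆, ume6∆ and snf2∆.

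The separate fatty acid synthase of mitochondria, with the lipoate genes it feeds, had 9 genes on its list. In ume6∆, 2 of the 9 were lower than in WT, where 15.2% of all genes were lower. The 2 were LIP5 at 48.6 RPKM against 116 RPKM and HTD2 at 10.9 RPKM against 25.2 RPKM. This count of lower genes was 0 after median ratio scaling. In snf2∆ and in ume6∆snf2∆, 0 of the 9 reached 2-fold in either direction. Of all genes, 3.31% were higher and 7.96% lower in snf2∆, and 10.4% were higher and 9.97% lower in ume6∆snf2∆. In the 5 comparisons, 3.31% to 11.1% of all genes were higher and 2.38% to 15.2% lower by 2-fold. Among the genes that release Mga2 and Spt23 from the membrane, 0 of 5 reached 2-fold in any of them. RSP5, the ubiquitin ligase of that step, had 101 RPKM in ume6∆snf2∆, 110 RPKM in ume6∆, 130.3 RPKM in snf2∆ and 186 RPKM in WT. UBX2, which recruits Cdc48 to the membrane, had changes over WT of -0.35, -0.82 and -0.46 in ume6∆snf2∆, ume6∆ and snf2∆. CDC48, the segregase, had -0.28, -0.15 and -0.34, and its partners NPL4 and UFD1 lay between -0.18 and 0.62.

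Of 11 regulators of transcription, 9 had their highest level in the double deletion, as did 2475 of the 6520 genes kept. After median ratio scaling these counts were 9 of 11 and 1633 of 6520. INO2 and INO4, the activators of synthase and phospholipid genes, were among the 9, and so was their repressor OPI1. INO2 had 45.7 RPKM in ume6∆snf2∆, 20.0 RPKM in ume6∆, 21.7 RPKM in snf2∆ and 24.4 RPKM in WT. INO4 had 54.0 RPKM in ume6∆snf2∆, 23.6 RPKM in ume6∆, 26.3 RPKM in snf2∆ and 21.4 RPKM in WT. OPI1 had 81.9 RPKM in ume6∆snf2∆, 49.0 RPKM in ume6∆, 44.5 RPKM in snf2∆ and 50.7 RPKM in WT. Of the 3, INO4 alone reached 2-fold in the double deletion over WT. INO1, CHO1 and OPI3, other genes of the same activators, did not follow 1 pattern. INO1 had 300.0 RPKM in ume6∆snf2∆, 955 RPKM in ume6∆, 3.21 RPKM in snf2∆ and 25.3 RPKM in WT, while CHO1 lay between 49.7 and 74.0 RPKM. OPI3 was lower than WT in all 3 deletion strains, with 43.0 RPKM in ume6∆snf2∆, 58.1 RPKM in ume6∆, 42.2 RPKM in snf2∆ and 86.6 RPKM in WT. It passed 2-fold in snf2∆ at -1.02, or -0.92 after median ratio scaling, and was at -0.99 in ume6∆snf2∆, or -1.05. ROX1, the repressor of hypoxic genes, was higher in all 3 deletion strains, at 75.2 RPKM in ume6∆snf2∆, 51.1 RPKM in ume6∆ and 65.2 RPKM in snf2∆ against 16.5 RPKM in WT. UPC2, an activator of sterol genes, was lower in all 3, at 47.0, 29.2 and 24.9 RPKM in the same order against 110.3 RPKM in WT. HAP1, the haem-responsive activator, was lower in ume6∆snf2∆ at 89.7 RPKM and in ume6∆ at 59.6 RPKM, against 183 RPKM in WT, and had 100.6 RPKM in snf2∆.

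Genes that use or store fatty acids were mixed. For beta-oxidation, the peroxisomal breakdown of fatty acids, 3 of 15 genes were higher in ume6∆snf2∆ than in WT and 0 lower. Of all genes, 10.4% were higher and 9.97% lower. The 3 were FOX2, POX1 and CAT2, and with a pseudocount of 5 the count was 1. FOX2, its multifunctional enzyme, had 67.9 RPKM in ume6∆snf2∆, 29.9 RPKM in ume6∆, 9.86 RPKM in snf2∆ and 10.9 RPKM in WT. In ume6∆, 1 of the 15 was higher than in WT and 3 were lower, where 4.59% and 15.2% of all genes were. Median ratio scaling gave 1 higher and 1 lower there. In snf2∆, 2 of the 15 were lower, where 7.96% of all genes were. With genes under a mean of 10 RPKM left out the count was 1. Among the 2 was the thiolase POT1 at 2.61 RPKM against 12.9 RPKM in WT. Of 15 sphingolipid genes, 6 were lower in ume6∆snf2∆, 5 in ume6∆ and 4 in snf2∆ than in WT, and 0 were higher in any of the 3. The shares of all genes lower were 9.97%, 15.2% and 7.96% in the same order, and those higher were 10.4%, 4.59% and 3.31%. SUR1, of the synthase that adds mannose to inositol phosphorylceramide, had 21.1 RPKM in ume6∆snf2∆, 41.0 RPKM in ume6∆, 24.7 RPKM in snf2∆ and 158 RPKM in WT. SCS7, which hydroxylates the very long chain, had 64.5 RPKM in ume6∆snf2∆, 60.8 RPKM in ume6∆, 72.4 RPKM in snf2∆ and 294 RPKM in WT. Median ratio scaling gave 6, 4 and 3 lower in the same order of strains, and then 1 gene was higher in ume6∆, TSC3 at 1.20, a small subunit of serine palmitoyltransferase.

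Of 13 genes of glycerolipid synthesis and storage, 0 were at 2-fold in ume6∆snf2∆, where 10.4% of all genes were higher and 9.97% lower. In ume6∆, 4 were lower than in WT, or 2 with median ratio scaling, where 15.2% of all genes were lower. The lipase TGL5 had 18.9 RPKM in ume6∆ and 63.7 RPKM in WT. In snf2∆ 1 was lower, the sterol acyltransferase ARE2, at 54.3 RPKM against 153 RPKM in WT, where 7.96% of all genes were lower. Of 7 genes around the oxygen-using steps of sterol synthesis, which like OLE1 need oxygen, ERG5 was lower in snf2∆ at 26.4 RPKM against 66.7 RPKM in WT. ERG1 was lower in ume6∆ at 281 RPKM against 589 RPKM in WT, short of 2-fold with median ratio scaling (-0.76). In ume6∆snf2∆, 0 of the 7 reached 2-fold. Of all genes, 7.96% were lower in snf2∆ and 15.2% in ume6∆, and in ume6∆snf2∆ 10.4% were higher and 9.97% lower. ERG3 had changes over WT of 0.46, 0.66 and -0.95 in ume6∆snf2∆, ume6∆ and snf2∆. The changes of ERG11, ERG25, CYB5 and NCP1 over WT lay between -0.59 and 0.45.

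**Figure D5:**
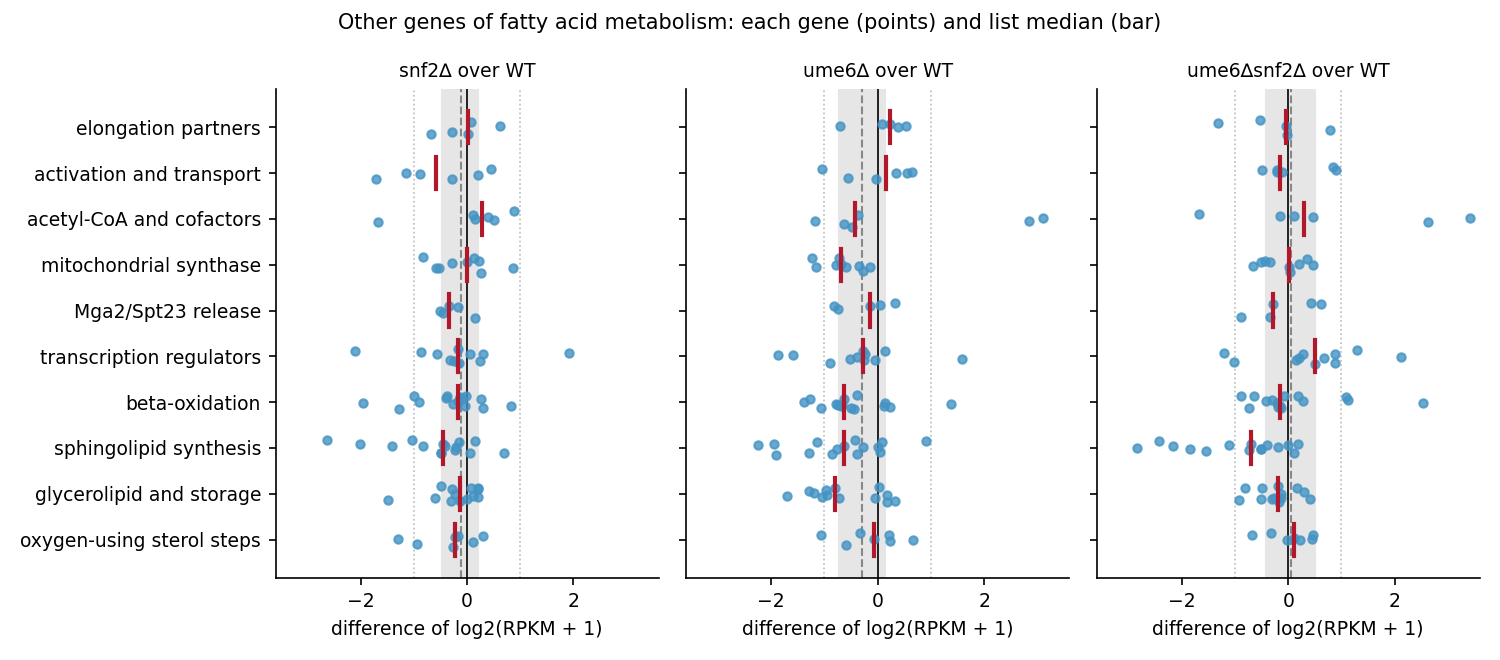
Difference of log2(RPKM + 1) for every gene of the 10 lists (points) and each list's median (bar) in the 3 comparisons with WT, with the interquartile range of all genes as a grey band and 2-fold as dotted lines. The 2 points at 3.11 and 2.85 in ume6∆ over WT are ALD6 and ACS1, and 6 sphingolipid genes lie below -1 in ume6∆snf2∆ over WT.

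The genes most like a member were found by the Euclidean distance between log2(RPKM + 1) values over the 4 libraries, after removing each gene's mean, among 4940 named genes whose mean reached 10 RPKM. For OLE1 they were SNA3 at a distance of 0.021, DSF2 at 0.027, JSN1 at 0.044 and MTE1 at 0.050. SNA3 had 184 RPKM in ume6∆snf2∆, 121 RPKM in ume6∆, 158 RPKM in snf2∆ and 215 RPKM in WT. For FAS1 they were CPP2 at 0.112, ASH1 at 0.147, PPT2 at 0.150 and HTL1 at 0.168. ASH1, a repressor of mating-type switching made in daughter cells, had 32.7 RPKM in ume6∆snf2∆, 45.4 RPKM in ume6∆, 31.6 RPKM in snf2∆ and 91.6 RPKM in WT. These distances describe 4 libraries only.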

How the data were processed

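RNA of 4 yeast strains was measured with 1 library each. Per the labels' protocols, RNA came from a hot phenol extraction, and library preparation used TruSeq V2 chemistry, so strand was not kept. Per the submitters' processing notes the build was sacCer3 and the tools were CASAVA and STAR 2.4.0, with no role given. The counter, its annotation and any filter are unstated in the sources used here. The authors deposited RPKM per gene. The deposited splicing table was not used. Of the RPKM lines, 3 named no gene and held 0.0811% to 0.221% of the summed RPKM, and were left out. Of 6659 genes, 5910 matched the R64 annotation.

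RPKM times gene length came out as whole reads, within 0.05, for 99.5% to 99.6% of values above 0, and this gave the reads behind each value. Ratios of RPKM have exact Clopper-Pearson 95% intervals from these reads; reads copied by PCR are not independent. Changes are differences of log2(RPKM + 1), with genes under a mean of 1 RPKM left out, and 2-fold as the size counted. No test across replicates was possible. The steps were tested on simulated data. The members and lists were chosen with earlier results of these data known, and the lists name at most 3 genes by size of change, or all members of lists of 7 or fewer. The 4 genes most like OLE1 and FAS1, and INO1, CHO1 and OPI3, are named as well. DAL3, MET17, LYS2, OPI1 and TSC3 were chosen after their values were seen. Alternatives were pseudocounts of 0.1 and 5, filters of none and 10 RPKM, median ratio and upper quartile scaling, and a 1.5-fold call. Python 3.11.15 with scipy 1.17.1 was used.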

Additional observations from a re-analysis of the deposited data

Results flagged for a closer look

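Some members changed in opposite directions on the 2 backgrounds for the same loss, with counting intervals off 1 on both. These differences were not tested, since each rests on 4 single libraries. By its definition each difference is the same number for either loss. It is also that gene's excess over the sum of the single changes, given above, and so not a separate result. For the loss of Snf2, OLE1 changed by 0.63 on the log2 scale without Ume6 and by -0.45 with it, a difference of 1.08. FAA4 changed by 0.42 without Ume6 and by -0.27 with it, a difference of 0.69, and ACC1 by 0.29 and -0.04, a difference of 0.32. Under median ratio scaling these pairs were 0.27 and -0.34 for OLE1, 0.05 and -0.17 for FAA4, and -0.08 and 0.07 for ACC1, so both directions turned round for ACC1.

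For the loss of Ume6, FAA1 changed by 0.39 without Snf2 and by -1.04 with it, a difference of 1.42. OLE1 changed by 0.23 without Snf2 and by -0.85 with it, a difference of 1.08, and ACC1 by 0.03 and -0.29, a difference of 0.32. After the same scaling the pairs were 0.23 and -0.73 for FAA1, 0.07 and -0.55 for OLE1, and -0.13 and 0.01 for ACC1, whose directions again turned round. The all-gene median of the same difference was 0.48 as deposited and 0.04 with that scaling.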

How the results depend on the processing

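No called change of a member reversed under any alternative run. Of 180 values of single members, 92 stayed within their counting interval and 88 moved beyond it. Of the values under a pseudocount, only those of MGA2 moved beyond it, at a pseudocount of 5. The other moves, nearly all of the 88, came with median ratio or upper quartile scaling, under which few values stayed within the interval. The pseudocounts and the filters on low values changed no members' count. With median ratio scaling the members at 2-fold numbered 1 in place of 3 in ume6∆ over WT and 1 in place of 0 in ume6∆snf2∆ over ume6∆. Both scalings gave 4 in place of 3 in ume6∆snf2∆ over WT, where FAA1 was gained at -1.04 and -1.02. With upper quartile scaling there was 1 in ume6∆ over WT and 2 in place of 3 in snf2∆ over WT, where FAS2 was at -0.95. A 1.5-fold call gave 7 members in ume6∆ over WT, 5 in ume6∆snf2∆ over WT, 3 in ume6∆snf2∆ over ume6∆ and 3 in ume6∆snf2∆ over snf2∆, where 43.9%, 41.0%, 39.7% and 27.6% of all genes passed it. In snf2∆ over WT the count stayed at 3, where 28.2% of all genes passed 1.5-fold.

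Under median ratio scaling the members' medians were -0.17 in snf2∆ over WT, -0.55 in ume6∆ over WT, -0.28 in ume6∆snf2∆ over WT, 0.01 in ume6∆snf2∆ over ume6∆ and -0.13 in ume6∆snf2∆ over snf2∆. With upper quartile scaling they were -0.12, -0.65, -0.26, 0.13 and -0.17 in the same order. The median in ume6∆snf2∆ over snf2∆ had been 0.03 and so changed sign. The all-gene median of that comparison moved from 0.141 to -0.0124 with median ratio scaling. The members' median excess over the sum of the single changes was 0.22 with median ratio and 0.29 with upper quartile scaling. Of 350 counts for the other lists, 74 changed by over 1.5 times.

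Over all genes, a pseudocount of 5 gave 561 genes at 2-fold in place of 949 in ume6∆snf2∆ over ume6∆, and 432 in place of 685 in ume6∆snf2∆ over snf2∆. A 1.5-fold call gave 1836, 2861, 2676, 2588 and 1797 genes in place of 735, 1288, 1326, 949 and 685, in the order of comparisons given for the medians. The Ume6 core was found in 1 member when the 50 bases after the start were left out. In the 1000 bases before the start, added after the data were seen, matches were found for 8 members with CACATG, 1 with ACTCAACAA, 2 with TTACCCG and 1 with ACACCCA. No paired analysis was possible because each strain has 1 library. Scatter between cultures was not measured, and the counting intervals do not hold it.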
